A study of Mus musculus with 8 samples.

Results

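The genes described here are 50 genes of DNA replication and S phase, the part of the cell cycle in which the genome is copied. They were chosen by symbol, as a fixed list of origin, helicase, polymerase, clamp, deoxynucleotide, E2F and chromatin-copying genes, and all 50 were found among the 55291 gene symbols in the deposited tables. No measured value entered the choice of symbols by rule, although the list was drawn up with earlier results of these libraries known.

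Outer medullary collecting ducts were profiled by RNA sequencing in mice of the inbred strain C57BL/6J that had eaten chow of normal (0.3%) or high (3%) salt content for 3 days. Ducts were microdissected from kidneys treated with liberase, a collagenase preparation, and 100 to 120 of them, all taken from 1 mouse, made up each library. There were 4 libraries per diet, all made with a stranded mRNA kit, and the labels give no further treatment, age or sex. The libraries carry the column numbers 1, 2, 3 and 6 under normal salt and 2, 3, 4 and 6 under high salt.

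Before S phase, the origin recognition complex, CDC6 and CDT1 load rings of the MCM2 to MCM7 helicase onto DNA, which is called licensing. CDC45 and the GINS complex then switch the helicase on, and polymerases, the PCNA clamp and DNA ligase 1 copy and join the strands with deoxynucleotides made by ribonucleotide reductase and its partners. Most of these genes are transcribed under E2F factors as a cell leaves G1, and the adult collecting duct is known as a tissue in which few cells divide.

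Levels are in CPM (counts divided by the library's total and put on 1 scale), and means are given ± SD over the 4 libraries of a diet. Recovered totals ran from 64.8 to 94.1 M estimated counts, and the smallest count behind any value of the 50 genes was 8. The labelled segment was matched by its defining markers: Aqp2, the water channel of principal cells, was at 7581 to 18026 CPM, and Slc4a1, the anion exchanger of acid-secreting intercalated cells, was at 2072 to 3257 CPM. Normal-salt library 1 and high-salt library 6 stood apart from the other libraries of their diets in several gene lists. Results are therefore also given without library 1, and counts without high-salt library 6. In bulk ducts, fewer cells of a type and less RNA per cell cannot be told apart.

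Under high salt, 49 of the 50 genes had a higher mean CPM than under normal salt, and the exception was Gins4. The ratio of mean CPM ran from 6.51-fold for E2f1 to 0.965-fold for Gins4. Ratios of genes below 1 CPM under normal salt, such as Mcm10 and E2f7, rest on small denominators. No single gene of the 50 passed a limma adjusted p under 0.05 in the 8-library comparison, where 0.0298% of all genes tested passed as higher. When normal-salt library 1 was left out 5 passed, against 0.269% of all genes: Lig1, Atad2, Pole, E2f1 and Tk1. Of these, E2f1 was below 1 CPM in 3 and Tk1 in 2 of the 4 normal-salt libraries. None of the 5 passed in TPM or with no filter on low values. Nor did any pass when normal-salt library 2, 3 or 6 or high-salt library 3 was also left out. The comparison addressed whether replication transcripts in this segment differ with salt intake.

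A gene entered the test when it reached 1 CPM in at least 4 of the 8 libraries, which 13401 genes and 46 of the 50 did. Orc1, Gins1, Mcm10 and Pole2 stayed below it. Limma with Benjamini-Hochberg adjustment called 0 of the 46, against 4 higher genes over all genes (0.0298%) and 11 in either direction (0.0821%). At an adjusted p under 0.1, limma gave 5 of the 46 as higher (Lig1, Atad2, Pole, E2f1 and Mcm3), where 52 of all genes were (0.388%). Of the 46, 45 had a higher mean log2(CPM + 1) under high salt, against 52.8% of all genes. An unadjusted p under 0.05 was reached by 33 of the 46 as higher, against 5.95% of all genes, and by 0 as lower, against 4.37%.

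Because 7 of the 46 lay below 1 CPM in at least 1 normal-salt library, the filter could favour genes that were high under high salt. The count was therefore repeated on the 39 that reached 1 CPM in every normal-salt library. Of these, 38 were higher, 27 had an unadjusted p under 0.05 (5.58% of the 12551 genes at that level) and 18 had diets that did not overlap (3.49%). Their median difference was 0.48 on the log2(CPM + 1) scale. With no filter at all, 49 of the 50 were higher (51.8% of 30343 genes), 34 had an unadjusted p under 0.05 (3.56%), and the median difference was 0.52 against 0.00 over all those genes.

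**Figure D1:**
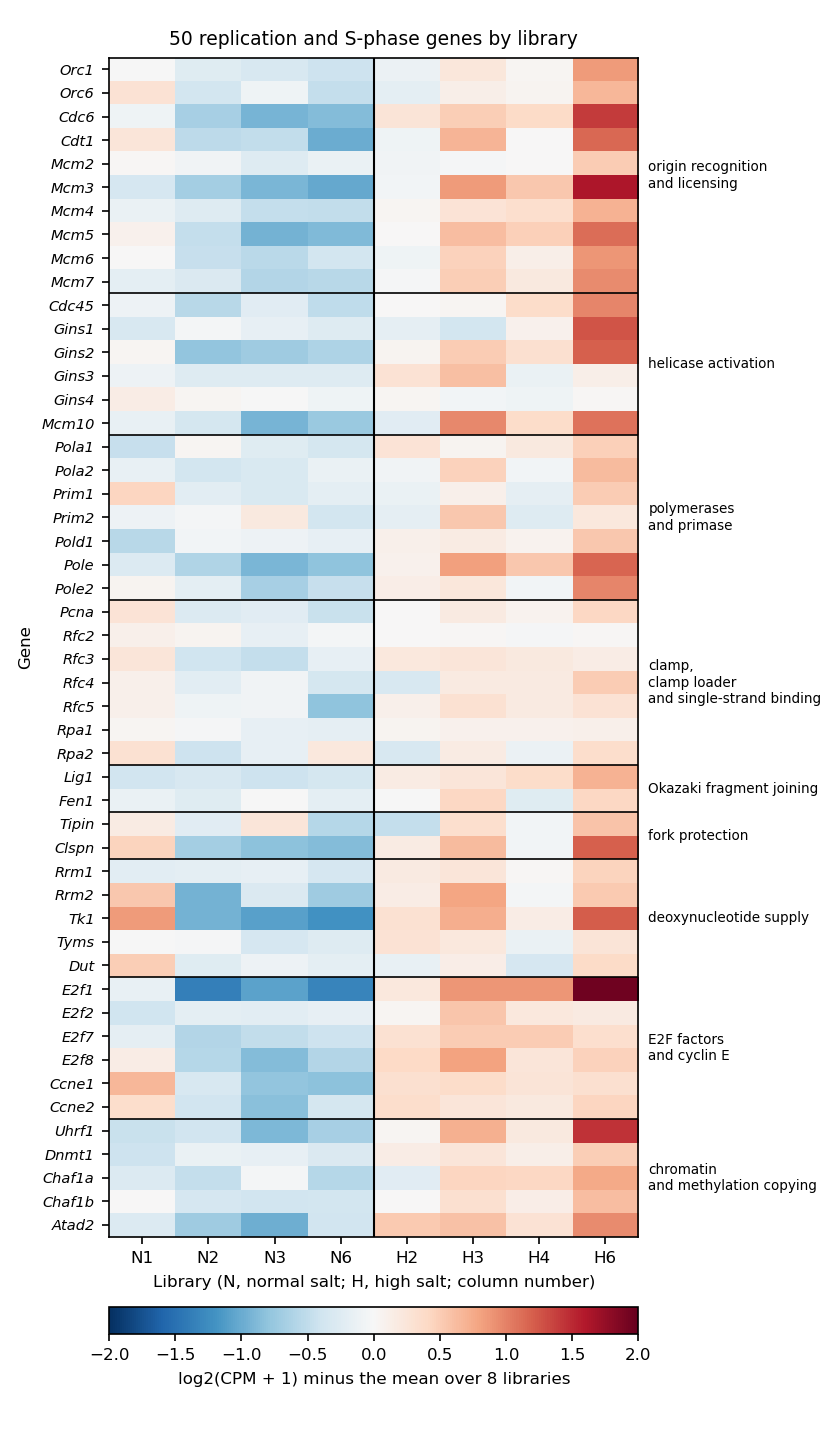
Colour gives log2(CPM + 1) of each gene (rows, grouped by role) in each of 8 libraries (columns), less the gene's mean over the 8. Normal-salt library 1 was the highest of its diet in 37 of the 50 genes, and high-salt library 6 in 38.

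The 2 diets did not overlap, with all high-salt libraries above all normal-salt libraries, in 21 of the 50 genes (2.02% of all genes without a filter). In 16 others only normal-salt library 1 reached into the high-salt range: Orc1, Cdt1, Mcm5, Mcm6, Gins3, Mcm10, Prim1, Pole2, Pcna, Rfc3, Rfc5, Clspn, Rrm2, Tk1, Ccne1 and Ccne2. Without that library the diets did not overlap in 37 genes, where 4.22% of all genes did not. In the other 13 genes at least 1 other normal-salt library reached into the high-salt range. For Chaf1a that was library 3 (11.2 CPM) and not library 1 (9.36 CPM), the lowest high-salt library being at 9.78 CPM. Library 1 was the highest normal-salt library in 37 of the 50 genes, as it was in 35.0% of all genes tested. Its level was a median of 1.36 times the mean of the other normal-salt libraries over the 50 genes, against 0.984 over all genes. High-salt library 6 was the highest of its diet in 38 of the 50, against 30.8% of all genes, at a median of 1.44 times the mean of the others (1.02 over all genes). High-salt library 3 was the highest in 10, library 2 in 2 and library 4 in 0.

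E2F factors bind promoters of replication genes, so the promoters of the 50 were read from RefSeq's GRCm38.p6 table, which covers 250 bases before to 49 after the first transcribed base. The table held 48 promoters of 40 of the 50 genes. Both strands were searched for 4 E2F-type words, TTTCCCGC, TTTCGCGC, TTTGCCGC and TTTGGCGC, which were matched in 18 of the 48 (37.5%), 1 in each of 18 genes. The same words were in 744 of 32851 mouse promoters (2.265%), in 3.88% of those of all genes tested and in 4.83% of those of tested genes with like GC content. The 200-base windows upstream of 4 genes are shown because their matches lie in sequence with no annotated exon, and because these genes stand for the helicase (Mcm5, Mcm6), a repressor E2F (E2f7) and the initiating polymerase (Pola1). Each reads 5′ to 3′ on the gene's strand, with the matches in capitals. The windows are at chr8:75109309-75109508 (plus strand) for Mcm5, chr1:128359706-128359905 (minus) for Mcm6, chr10:110745239-110745438 (plus) for E2f7 and chrX:93632156-93632355 (minus) for Pola1.
Mcm5: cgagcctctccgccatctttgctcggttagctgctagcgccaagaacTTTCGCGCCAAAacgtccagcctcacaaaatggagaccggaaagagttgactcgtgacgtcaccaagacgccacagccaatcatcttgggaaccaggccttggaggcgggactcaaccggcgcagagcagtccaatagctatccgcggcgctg
Mcm6: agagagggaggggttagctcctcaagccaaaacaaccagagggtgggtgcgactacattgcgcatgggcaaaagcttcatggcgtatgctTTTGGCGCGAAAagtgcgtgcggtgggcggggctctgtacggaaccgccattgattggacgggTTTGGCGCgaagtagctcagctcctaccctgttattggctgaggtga
E2f7: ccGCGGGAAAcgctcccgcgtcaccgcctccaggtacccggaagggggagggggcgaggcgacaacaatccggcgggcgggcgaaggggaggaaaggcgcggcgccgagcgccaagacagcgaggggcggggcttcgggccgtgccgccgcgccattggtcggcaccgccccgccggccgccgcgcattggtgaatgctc
Pola1: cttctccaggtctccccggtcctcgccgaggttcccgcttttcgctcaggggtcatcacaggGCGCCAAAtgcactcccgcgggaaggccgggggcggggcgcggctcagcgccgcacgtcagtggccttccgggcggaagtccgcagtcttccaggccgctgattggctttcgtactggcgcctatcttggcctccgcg
Counted from the first transcribed base at 0, the Mcm5 matches begin at -153 and -149 and overlap. Mcm6 has an overlapping pair that begins at -110 and -106, and another match at -47. E2f7 has 1 match, at -198, and Pola1 has 1, at -138. Over the 18 genes, 14 matches lay upstream of the start (11 genes) and 11 downstream (10 genes).

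The 18 genes with a match had a median difference between the diets of 0.71 on the log2(CPM + 1) scale (range 0.40 to 1.47), and in 10 of them the diets did not overlap. The 22 genes whose promoters held none of the words had a median of 0.44 (range 0.02 to 1.96), and in 7 the diets did not overlap. E2f1, with the largest difference of the 50, was among these 22. A match describes letters only, and no match says only that these words are not in this window. CCAAT, the word bound by NF-Y, was in 29 of the 48 promoters (60.4%), against 38.0% of the promoters of tested genes. The CHR words TTTGAA and TTCGAA, known from late cell-cycle promoters, were in 9 (18.8%), against 13.7% of tested genes and 12 of 16 promoters (75%) of the mitosis genes described further on.

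**Figure D2:**
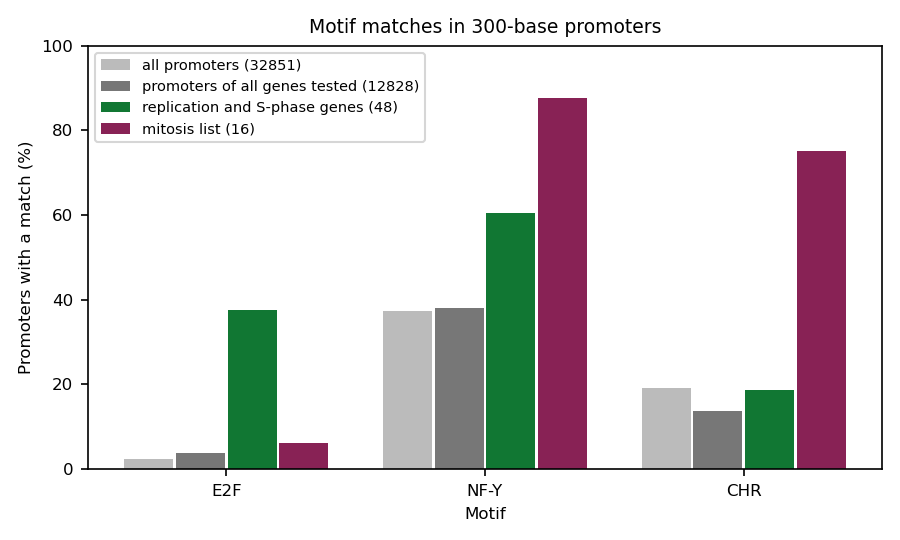
Bars give the percentage of 300-base promoters with a match to E2F, NF-Y (CCAAT) or CHR words, for each promoter set with its number of promoters. The E2F words were in 37.5% of the promoters of the replication genes and 6.25% of those of the mitosis genes, and the CHR words in 18.8% and 75%.

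For the counts by role below, the shares over all genes were 52.8% higher in mean and 5.95% with an unadjusted p under 0.05 as higher. Among the 10 origin and licensing genes, 9 were tested, all 9 were higher in mean, 7 had an unadjusted p under 0.05 and the median difference was 0.81. Mcm3, a helicase subunit, was at 8.79, 6.64, 5.56 and 5.04 CPM in normal-salt libraries 1, 2, 3 and 6 and at 10.9, 21.2, 16.8 and 36.7 CPM in high-salt libraries 2, 3, 4 and 6. The diets did not overlap, and high-salt library 6 was far above the rest. Its log2 difference was 1.47 (SE 0.30, limma adjusted p = 0.0943). Cdc6, which loads the helicase, averaged 2.25 ± 0.947 CPM under normal salt and 7.03 ± 3.29 under high salt, also without overlap (1.27, adjusted p = 0.12 by limma).

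Of the other helicase subunits, Mcm4 went from 20.5 ± 2.58 to 33.7 ± 6.82 CPM and Mcm7 from 22.4 ± 3.22 to 41.0 ± 12.7, both without overlap. Mcm5 was at 20.2 CPM in normal-salt library 1, 9.37 to 13.4 in the other normal-salt libraries and 19.1 to 42.7 under high salt. Mcm6 followed the same order, at 31.6 CPM in library 1, 21.4 to 24.1 in the others and 29.5 to 58.8 under high salt. Mcm2 differed least among the 6 subunits, at 39.6 ± 3.25 and 46.6 ± 9.73 CPM, and the high-salt mean rested on library 6 (61.1 CPM, against 40.5 to 43.1 in the others). Per transcript length, the subunits' normal-salt levels ran from 4.34 TPM (Mcm3) to 19.9 TPM (Mcm2) and their high-salt levels from 12.1 TPM (Mcm3) to 32.8 TPM (Mcm7). Cdt1, the other loader, was at 3.22 ± 1.57 and 6.84 ± 3.24 CPM. Orc1 and Orc6, subunits of the origin recognition complex, averaged 0.432 and 6.94 CPM under normal salt and 1.08 and 8.93 CPM under high salt, with overlap in both.

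Of the 6 helicase-activation genes 4 were tested, 3 of them with an unadjusted p under 0.05, and the median difference was 0.57. Gins2, a GINS subunit, was at 5.57, 2.71, 2.89 and 3.13 CPM in normal-salt libraries 1, 2, 3 and 6 and at 5.63, 8.06, 6.93 and 13.6 CPM in high-salt libraries 2, 3, 4 and 6. The diets did not overlap, but library 1 came within 0.1 CPM of high-salt library 2 (log2 difference 1.04, SE 0.26, limma adjusted p = 0.172). Cdc45, which switches the helicase on together with GINS, averaged 2.69 ± 0.572 and 5.17 ± 2.11 CPM without overlap. Gins3, another GINS subunit, averaged 4.10 ± 0.298 and 6.02 ± 1.503 CPM. Gins4, the remaining tested subunit, was level at 27.4 ± 1.94 and 26.5 ± 1.154 CPM (log2 difference -0.05, 95% interval -0.26 to 0.16). Mcm10, a scaffold for helicase start-up, lay at 0.085 to 0.879 CPM under normal salt and 0.764 to 3.38 CPM under high salt. Gins1 averaged 0.620 and 1.37 CPM, with 3.45 CPM in high-salt library 6 and 0.439 to 0.963 CPM in the other high-salt libraries.

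Of the 7 polymerase and primase genes 6 were tested, 4 with an unadjusted p under 0.05, and the median difference was 0.45. Pole, the catalytic subunit of the leading-strand polymerase epsilon, was at 3.13, 2.27, 1.64 and 1.84 CPM in normal-salt libraries 1, 2, 3 and 6 and at 4.28, 7.80, 6.24 and 10.2 CPM in high-salt libraries 2, 3, 4 and 6. Every high-salt library lay above every normal-salt library. The log2 difference was 1.30 (SE 0.24, limma adjusted p = 0.0815) with all libraries. Without library 1 it was 1.43 (limma adjusted p = 0.0477). In TPM the Pole ratio was 1.88 where in CPM it was 3.21, and normal-salt library 1 (1.51 TPM) lay above high-salt libraries 2 (0.968) and 4 (1.49).

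Pola1, the catalytic subunit of polymerase alpha, averaged 10.9 ± 1.86 and 15.9 ± 2.10 CPM without overlap, and library 1 was the lowest normal-salt library (9.19 CPM). Pold1, the catalytic subunit of the lagging-strand polymerase delta, averaged 32.3 ± 4.96 and 43.9 ± 7.26 CPM without overlap, and library 1 was again the lowest, at 25.1 CPM. Pola2, the regulatory subunit of polymerase alpha, averaged 7.46 ± 0.670 and 11.0 ± 2.96 CPM without overlap. The primase subunits differed less: Prim1 averaged 11.3 ± 3.15 and 12.6 ± 3.09 CPM, and Prim2 5.36 ± 0.992 and 6.22 ± 1.90 CPM, with overlap in both. Pole2, the second epsilon subunit, averaged 0.498 and 1.39 CPM.

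All 7 genes of the clamp, its loader and single-strand binding were tested, 3 had an unadjusted p under 0.05 and the median difference was 0.28, the lowest of the roles. Rfc3, a subunit of the clamp loader, was at 12.2, 7.51, 7.0 and 8.95 CPM in normal-salt libraries 1, 2, 3 and 6 and at 12.0, 12.2, 11.7 and 11.4 CPM in high-salt libraries 2, 3, 4 and 6. The high-salt libraries were within 1 CPM of each other, and library 1 fell among them (log2 difference 0.40, SE 0.16, limma adjusted p = 0.429). Pcna, the sliding clamp, was the most abundant of the 50 per transcript length, at 77.8 ± 8.81 TPM under normal salt and 102 ± 12.7 TPM under high salt. In CPM it was at 85.2 in library 1, 51.4 to 59.6 in the other normal-salt libraries and 70.7 to 93.7 under high salt. Its pseudogene Pcna-ps2 was listed at 2.81 to 9.96 TPM, so part of the reads may have been split between them.

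Rpa1, the large subunit of the single-strand binding protein, averaged 66.5 ± 4.88 and 74.4 ± 0.961 CPM, and the diets did not overlap although library 1 (72.1 CPM) came close to the lowest high-salt library (73.0 CPM). Rpa2, its partner, averaged 9.57 ± 2.38 and 9.81 ± 2.24 CPM (log2 difference 0.04, 95% interval -0.40 to 0.48). Rfc2 was level at 32.9 ± 2.79 and 33.5 ± 0.570 CPM (0.03, 95% interval -0.18 to 0.23). Rfc4 and Rfc5, other loader subunits, averaged 6.16 and 12.6 CPM under normal salt and 7.78 and 16.9 CPM under high salt.

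Lig1, the ligase that joins Okazaki fragments on the lagging strand, had the smallest limma p of the 50 together with Atad2. It was at 23.1, 24.1, 22.6 and 23.5 CPM in normal-salt libraries 1, 2, 3 and 6 and at 34.3, 36.2, 39.7 and 49.7 CPM in high-salt libraries 2, 3, 4 and 6. The normal-salt libraries were nearly equal, library 1 included, and every high-salt library lay well above them. Its log2 difference was 0.74 (SE 0.12, limma adjusted p = 0.0529) with all libraries and 0.73 without library 1 (limma adjusted p = 0.0477). Fen1, the nuclease that trims Okazaki fragments, averaged 16.0 ± 1.18 and 20.04 ± 4.58 CPM with overlap.

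Of the fork-protection pair, Clspn, which relays the signal of a stalled fork, was at 3.13, 0.890, 0.712 and 0.647 CPM in normal-salt libraries 1, 2, 3 and 6 and at 2.37, 3.66, 1.90 and 5.88 CPM in high-salt libraries 2, 3, 4 and 6. Only library 1 overlapped the high-salt range, at 4.18 times the mean of the other normal-salt libraries (log2 difference 0.96, SE 0.35, limma adjusted p = 0.366). Tipin, its partner at the fork, averaged 9.43 ± 2.53 and 11.1 ± 3.68 CPM with overlap.

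All 5 deoxynucleotide genes were tested, 4 had an unadjusted p under 0.05 and the median difference was 0.45. Rrm1, the large subunit of ribonucleotide reductase, was at 37.7, 38.4, 39.1 and 34.5 CPM in normal-salt libraries 1, 2, 3 and 6 and at 49.9, 52.2, 44.7 and 60.4 CPM in high-salt libraries 2, 3, 4 and 6. The diets did not overlap and library 1 was not apart (log2 difference 0.45, SE 0.10, limma adjusted p = 0.149). Rrm2, the small subunit, whose level is known to follow S phase, was at 26.2 CPM in library 1, 8.71 to 14.3 in the other normal-salt libraries and 17.2 to 31.3 under high salt.

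Tk1, thymidine kinase of the salvage path, was at 6.22, 1.09, 0.892 and 0.723 CPM in normal-salt libraries 1, 2, 3 and 6 and at 3.93, 5.66, 3.44 and 8.30 CPM in high-salt libraries 2, 3, 4 and 6. Library 1 was at 6.90 times the mean of the other normal-salt libraries and above 3 of the 4 high-salt libraries. The log2 difference was 1.20 (SE 0.43, limma adjusted p = 0.360) with all libraries and 1.68 without library 1 (SE 0.26, limma adjusted p = 0.0362). With all 8 libraries Tk1 therefore did not pass this test. Tyms, thymidylate synthase, averaged 9.40 ± 1.18 and 12.0 ± 1.63 CPM. Dut, which removes dUTP, averaged 16.2 ± 4.503 and 16.3 ± 3.87 CPM (0.02, 95% interval -0.43 to 0.46), with 22.8 CPM in library 1 and 13.3 to 14.7 in the other normal-salt libraries.

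**Figure D3:**
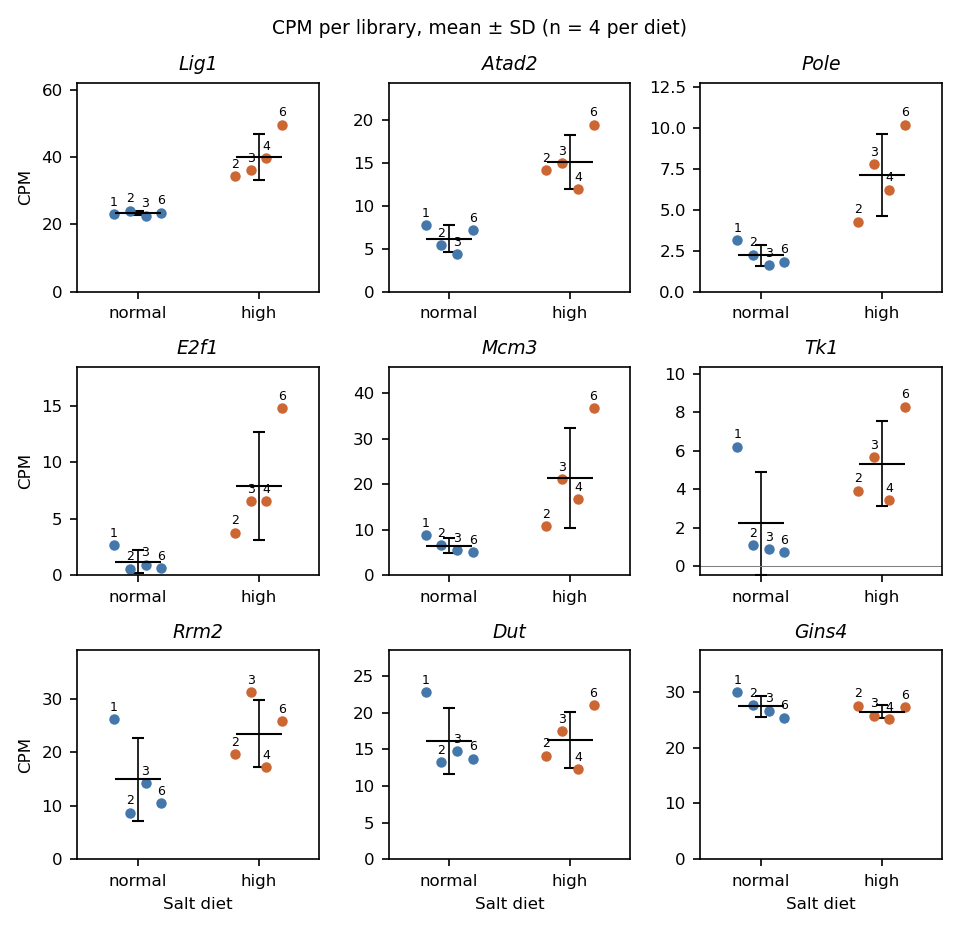
Points give CPM in each library, labelled by column number, for 9 genes under normal salt (blue) and high salt (orange), with bars at the mean ± SD (n = 4 per diet). The Lig1 values of normal-salt library 1 (23.1 CPM) sit with the other normal-salt libraries, whereas its Tk1 value (6.22 CPM) sits among the high-salt libraries.

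All 6 E2F and cyclin E genes were tested, 5 had an unadjusted p under 0.05 and the median difference was 0.73. E2f1, an activating E2F, was at 2.68, 0.597, 0.945 and 0.634 CPM in normal-salt libraries 1, 2, 3 and 6 and at 3.76, 6.53, 6.58 and 14.8 CPM in high-salt libraries 2, 3, 4 and 6. The diets did not overlap, although library 1 was at 3.70 times the mean of the other normal-salt libraries and high-salt library 6 at 2.62 times the mean of its own. The E2f1 log2 difference was 1.96 (SE 0.37, limma adjusted p = 0.0815) with all libraries and 2.23 without library 1 (SE 0.34, limma adjusted p = 0.0362). Without library 1 no normal-salt library reached 1 CPM for E2f1, so that it then met the filter only through the libraries in which it was high. E2f2, another activator, averaged 12.7 ± 0.942 and 18.4 ± 3.05 CPM without overlap.

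The repressors E2f7 and E2f8, themselves E2F targets, were low. E2f7 averaged 0.382 ± 0.169 and 1.46 ± 0.187 CPM and passed the filter only through its high-salt libraries, and its ratio was 3.81 in CPM and 8.36 in TPM. E2f8 averaged 0.656 ± 0.544 and 2.10 ± 0.529 CPM, also without overlap. Ccne1 and Ccne2, the cyclins that drive entry into S phase, averaged 1.04 ± 1.12 and 0.841 ± 0.659 CPM under normal salt and 1.87 ± 0.0957 and 1.70 ± 0.198 CPM under high salt. In library 1 Ccne1 was at 2.67 CPM, above all 4 high-salt libraries, and at 0.304 to 0.855 CPM in the other normal-salt libraries.

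All 5 genes that copy chromatin and DNA methylation behind the fork had an unadjusted p under 0.05, with a median difference of 0.68. Atad2, a chromatin ATPase of replicating cells, was at 7.77, 5.45, 4.37 and 7.17 CPM in normal-salt libraries 1, 2, 3 and 6 and at 14.2, 14.98, 12.0 and 19.5 CPM in high-salt libraries 2, 3, 4 and 6. No library overlapped. The Atad2 log2 difference was 1.17 (SE 0.19, limma adjusted p = 0.0529) with all libraries and 1.28 without library 1 (SE 0.19, limma adjusted p = 0.0362).

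Dnmt1, the maintenance DNA methyltransferase, averaged 49.3 ± 4.44 and 70.3 ± 8.58 CPM without overlap, and library 1 was the lowest normal-salt library (43.6 CPM). Uhrf1, which brings it to new DNA, averaged 11.1 ± 1.89 and 28.7 ± 14.1 CPM without overlap, with 48.5 CPM in high-salt library 6. Chaf1a and Chaf1b, subunits of the histone chaperone CAF-1, averaged 9.02 ± 1.69 and 4.12 ± 0.694 CPM under normal salt and 15.4 ± 4.27 and 6.47 ± 1.44 CPM under high salt. For Chaf1a the ratio was 1.71 in CPM and 3.49 in TPM. Of the 50 genes, 4 had CPM and TPM ratios more than 1.5 times apart: Mcm10, Pole, E2f7 and Chaf1a.

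**Figure D4:**
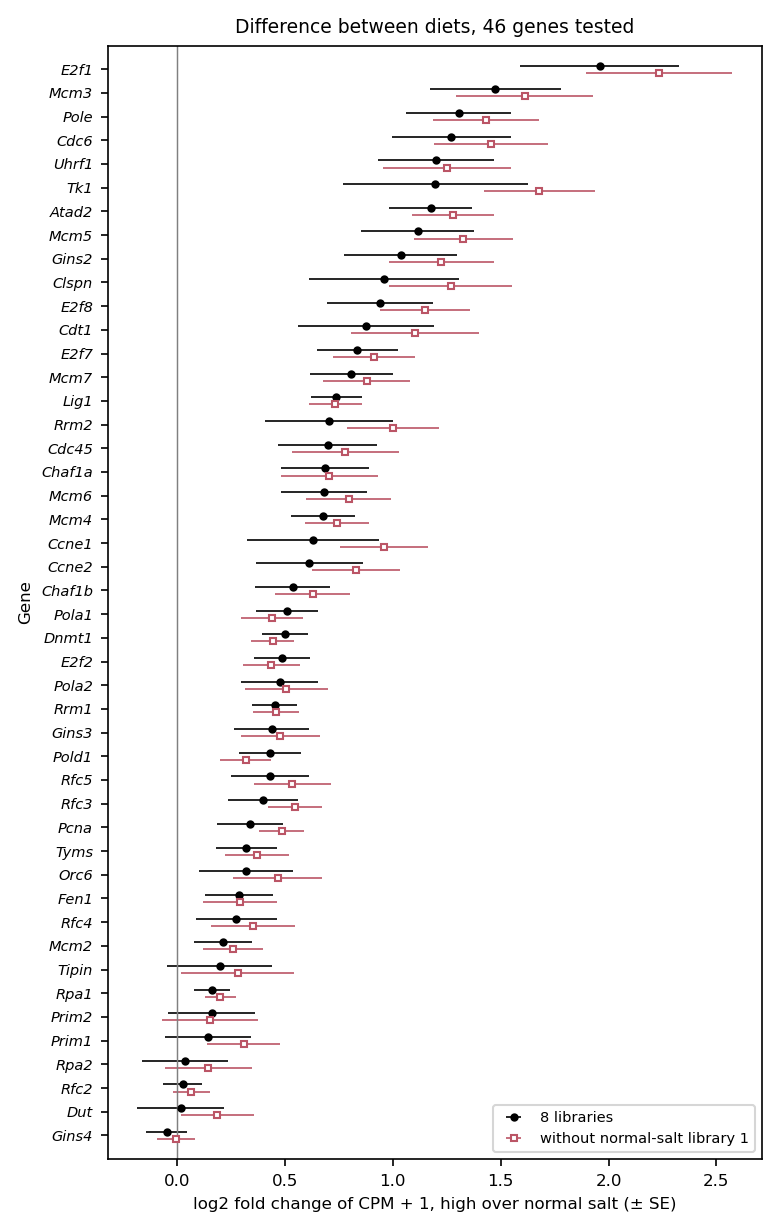
Points give the log2 fold change of CPM + 1, high over normal salt, ± SE for the 46 tested genes, with all 8 libraries (black) and without normal-salt library 1 (open squares). E2f1 had the highest value (1.96, and 2.23 without library 1) and Gins4 the lowest (-0.05 with all libraries).

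Without normal-salt library 1, limma called 36 higher genes (0.269% of those tested), and 5 of the 50 were among them. An unadjusted p under 0.05 was reached by 36 of the 46 tested as higher (7.81% of all genes), and the diets did not overlap in 34 of the 46 (7.14%). At an adjusted p under 0.1 there were 113 higher genes (0.843%), with 15 of the 50: the 5 named and Cdc6, Mcm3, Mcm4, Mcm5, Gins2, Pcna, Rrm2, E2f7, E2f8 and Ccne1. Without library 1, Clspn, E2f1, E2f7, E2f8, Ccne1 and Ccne2 were below 1 CPM in every remaining normal-salt library and entered these counts only through high salt. Tk1 reached 1 CPM in 1 of them. Of the 39 genes at 1 CPM or more in each remaining normal-salt library, 38 were higher, with a median of 0.48. Limma gave 3 of the 39 an adjusted p under 0.05 (Lig1, Atad2 and Pole, against 0.189% of 12674 genes at that level) and 10 an adjusted p under 0.1 (0.623%). An unadjusted p under 0.05 was reached by 29 of the 39 (7.2%), and the diets did not overlap in 27 (6.65%). This count was added after the data were seen. The 5 calls were lost when normal-salt library 2, 3 or 6 or high-salt library 3 was also left out (0 of the 50 each time), and 2 remained of the 5 without high-salt library 4. In TPM, or with no filter on low values, 0 of the 50 were called. Without high-salt library 6 instead, limma called 0 of the 50 (0.0224% of genes were called higher) and 24 had an unadjusted p under 0.05 as higher (5.10%).

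Other gene lists of the cell cycle were set beside the 50. Over all genes tested, 52.8% were higher, 5.95% had an unadjusted p under 0.05 as higher, and the median difference was 0.01. Of 36 tested further replication factors, 29 were higher, 10 with an unadjusted p under 0.05, and the median difference was 0.18. Among them Dna2, a nuclease and helicase, averaged 2.74 ± 0.458 and 4.94 ± 1.16 CPM, Topbp1, an activator of origin firing and checkpoint, 28.0 ± 2.12 and 41.3 ± 8.92, Hells, a chromatin remodeller, 3.10 ± 0.511 and 8.73 ± 4.77, and Dck, deoxycytidine kinase, 6.03 ± 1.42 and 9.54 ± 0.962. Their limma adjusted p ran from 0.202 to 0.216. Pclaf, a PCNA-binding factor, was at 4.64 CPM in library 1, 0.0531 to 1.05 in the other normal-salt libraries and 2.59 to 5.87 under high salt. Its log2 difference was 1.85 without library 1 (limma adjusted p = 0.0451).

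Of 19 tested mitosis genes, whose products act after replication, all 19 were higher, 15 had an unadjusted p under 0.05 and the median difference was 0.92. Mki67, the Ki-67 proliferation antigen, was at 17.2, 9.24, 4.40 and 4.24 CPM in normal-salt libraries 1, 2, 3 and 6 and at 31.0, 40.8, 21.2 and 25.4 CPM in high-salt libraries 2, 3, 4 and 6. The diets did not overlap (log2 difference 1.80, SE 0.37, limma adjusted p = 0.0937), and the difference was 2.17 without library 1 (limma adjusted p = 0.0179). Without library 1, 8 of the 19 were called, against 0.269% of all genes as higher: Mki67, Ccna2, Cdk1, Bub1, Bub1b, Aurka, Cenpf and Kif11. Of these, Bub1 was below 1 CPM in every remaining normal-salt library. With normal-salt library 3 or 6 also left out, 0 genes of any kind were called. Cenpf, a kinetochore protein, averaged 3.15 ± 1.20 and 8.61 ± 1.73 CPM, and Kif11, a spindle motor, 2.15 ± 1.15 and 6.42 ± 1.33 CPM, both without overlap. High-salt library 3, not library 6, had the highest mean level of the mitosis genes.

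Of 18 tested G1 regulators 11 were higher, with a median of 0.04. Myc, a growth-promoting transcription factor, averaged 7.08 ± 3.68 and 14.7 ± 2.92 CPM (limma adjusted p = 0.202), and Cdkn1a, the p21 inhibitor, 10.8 ± 2.30 and 13.8 ± 1.66 (adjusted p = 0.481). Of 14 other E2F and DREAM complex genes 7 were higher, and the smallest p was that of Mybl1, a MYB factor, at 2.29 ± 0.337 and 4.93 ± 0.828 CPM (limma adjusted p = 0.0887). Of 21 DNA damage response genes 20 were higher, 9 with an unadjusted p under 0.05, with a median of 0.42. Brca1, of homologous recombination, averaged 3.57 ± 0.584 and 7.49 ± 1.81 CPM (limma adjusted p = 0.13). Of 13 tested p53 target genes 10 were higher, 3 with an unadjusted p under 0.05, with a median of 0.21. Plk2, a polo-like kinase, averaged 15.7 ± 5.02 and 35.2 ± 13.4 CPM (limma adjusted p = 0.172).

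**Figure D5:**
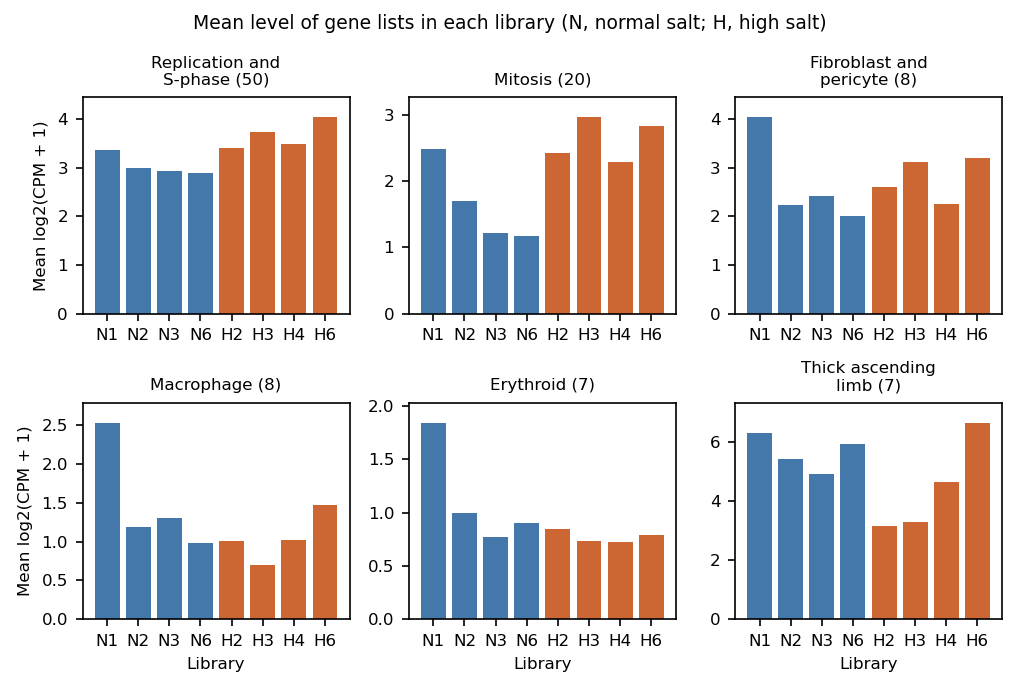
Bars give the mean log2(CPM + 1) of gene lists in each library (N, normal salt; H, high salt; number of genes in brackets). The replication genes were at 2.88 to 3.36 under normal salt and 3.40 to 4.05 under high salt, and library 1 was the highest normal-salt library for the replication, mitosis, fibroblast, macrophage, erythroid and thick ascending limb lists. Of lists not drawn, library 1 had the lowest normal-salt mean for endothelium (4.06, others 4.48 to 4.73) and thin limb (3.12, others 3.94 to 4.66). The same held for intercalated cells (9.45, others 9.50 to 9.63).

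Markers of other cell types differed between some of these libraries. All 8 fibroblast and pericyte markers were detected, and their summed level was 296 CPM in normal-salt library 1, 36.8 to 55.5 CPM in the other normal-salt libraries and 52.9 to 142 CPM under high salt. With all 8 libraries, 5 of 7 tested fibroblast markers were higher under high salt, with a median difference of 0.12. Without library 1, 6 of the 7 were higher (median 0.80), and without high-salt library 6 instead, 3 were (median -0.02). The 8 macrophage markers summed to 47.0 CPM in library 1, 9.45 to 14.8 CPM in the other normal-salt libraries and 6.52 to 17.9 CPM under high salt. The 7 thick ascending limb markers, of the neighbouring tubule, summed to 599 to 2136 CPM under normal salt, 97.4 to 459 CPM in high-salt libraries 2, 3 and 4 and 2731 CPM in library 6. The 8 endothelial markers summed to 178 to 270 CPM under normal salt and 167 to 263 CPM under high salt. The 6 thin limb markers summed to 384 to 573 CPM and 492 to 563 CPM. The 8 lymphocyte markers summed to at most 0.787 CPM in any library. Of the 7 proximal tubule markers 6 were detected and Slc5a12 was at 0 in every library, and the list summed to 37.0 to 164 CPM under normal salt and 65.0 to 229 CPM under high salt, with both tested markers higher (median 0.78). Erythroid markers summed to 31.1 to 41.5 CPM under normal salt and 28.0 to 30.8 CPM under high salt. The 7 urothelial markers summed to 2.73 to 4.602 CPM under normal salt and 4.78 to 7.27 CPM under high salt. Marker sums of the duct's own cell types also differed by diet. The 7 principal cell markers summed to 16788 to 21658 CPM under normal salt and 24411 to 29608 CPM under high salt. The 7 intercalated cell markers summed to 6804 to 7745 and 5408 to 6794 CPM, without overlap in either sum. The sums weigh the most abundant markers most. The mean log2(CPM + 1) of the principal cell markers overlapped, at 10.57 to 10.73 under normal and 10.66 to 10.76 under high salt. By gene, 3 of 7 principal cell markers were higher in mean and 4 lower (median difference -0.003). The diets did not overlap in 2 as higher and 1 as lower, and as many had an unadjusted limma p under 0.05. Of the 7 intercalated cell markers 5 were lower, 3 of them without overlap, and 2 had an unadjusted p under 0.05 as lower. Limma called none of the 14. The part of these cell types in the differences of the replication genes was not tested.

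Positions are from GENCODE M21 on mm10, where all 50 genes were found. Lig1 spans chr7:13277283-13311433 on the plus strand, Atad2 chr15:58094044-58135082 on the minus strand and Pole chr5:110286306-110337474 on the plus strand. E2f1 spans chr2:154559407-154569892, Mcm3 chr1:20802968-20820312 and Tk1 chr11:117815526-117826092, all on the minus strand. All are protein-coding. How the exons and isoforms of a gene were combined into its value is not given in the sources used here. Exons of another gene lie on the opposite strand in 16 of the 50, among them Zswim9 for Lig1, Afmid for Tk1 and Gm15792 for Pole, and on the same strand in 3 (Mcm7, Pole2 and Rpa1). Whether the counting used strand is not given in the sources used here, so these levels may include reads of the overlapping gene.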

How the data were processed

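Per the labels' protocols, the library kit kept strand. The submitters' processing notes name FastQC, Trimmomatic and the build mm10. Which aligner, counter, strand setting and annotation were used is not given in the sources used here. Values were deposited by the authors as 1 table of log2 CPM, with a shared floor of -5.29, and 1 of TPM. The test had been planned for linear CPM, so each deposited log2 value was raised as a power of 2, less the floor, and scaled to a common total. CPM steps gave estimated counts, 83.8% to 85.2% of them whole within 0.005, so no count model was used.

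The columns give each library's diet but not its sample title. The labels say that each pool came from a single mouse. Diets were compared with limma 3.58.1 in R 4.3.3, using log2(CPM + 1) (lmFit, eBayes with a mean-variance trend, two-sided, Benjamini-Hochberg over 13401 genes with at least 1 CPM in at least 4 of 8 libraries). Fold changes on this scale understate those of low genes. Calls were made where the adjusted p was under 0.05.

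The 50 genes and all other lists were chosen with earlier results of these data known. Values per library are given for the gene with the smallest p in each role, for any gene called in either fit and for some others named after their values were seen. From each further list up to 4 genes with the smallest p, and Mki67, were eligible to be named. Alternatives covered the pseudocount, filter, scaling, TPM, robust moderation, array weights, a block by column number and each library left out. The test was also run on simulated libraries of equal depth, with none standing apart and no low gene changed. That run cannot speak for low genes or for libraries that stand apart.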

Additional observations from a re-analysis of the deposited data

Results flagged for a closer look

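The highest library of a diet stood far from the other 3 of that diet in 10 of the 100 groups checked (50 genes in each diet). The 50 genes share the same 8 libraries, so the 10 cannot be measured against a chance rate. Normal-salt library 1 was the one apart in 8 of the 10. It was at 6.22 CPM for Tk1, where the next normal-salt library was at 1.09 CPM, and at 3.13 CPM for Clspn, where the next was at 0.890. For E2f1 it was at 2.68 CPM (next 0.945) and for Gins2 at 5.57 CPM (next 3.13). For Prim1 it was at 16.0 CPM (next 10.1), and for Dut at 22.8 CPM (next 14.7). For Chaf1b it was at 5.15 CPM (next 3.86) and for Gins3 at 4.55 CPM (next 3.96). High-salt library 6 was apart in the other 2, at 11.9 CPM for Cdc6 (next 5.88) and 61.1 CPM for Mcm2 (next 43.1). Library 1 had 64.8 M estimated counts, the fewest of the 8, and also the highest summed fibroblast and macrophage markers. Library 6 had 69.2 M and the highest summed thick ascending limb markers. Their part in these values was not tested.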

How the results depend on the processing

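With 4 libraries per diet, calls at an adjusted p under 0.05 moved with the processing, while the median difference of the 46 tested replication genes stayed between 0.48 and 0.64. Of all genes, limma called 11 in the 8-library comparison. It called 0 with no filter (1933 at an unadjusted p under 0.05), 5 in TPM, 22 with robust moderation, 129 with array weights and 38 with a replicate block, and 0 to 50 with each library left out. The 0 came from leaving out normal-salt library 3 (1231 genes at an unadjusted p under 0.05) and from leaving out high-salt library 4 (924). Of the 50 replication genes it called 0, and 2 with robust moderation (Lig1, Atad2), 12 with array weights, 4 with the block (Rrm2, Tk1, E2f1, Atad2) and 0 to 5 with each library left out. The block fit compared the diets within the shared column numbers 2, 3 and 6 only. Normal-salt library 1 and high-salt library 4 had no partner and added nothing to its difference. The block calls therefore also leave out library 1 and are not a separate check on it. Over these alternatives the Lig1 adjusted p ran from 0.0187 to 0.228. The column numbers do not pair the mice by any label: deviations from the diet means correlated at 0.21, 0.29 and 0.00 for the shared numbers 2, 3 and 6. The cause of these changes was not tested, except that the fit with no filter adjusted over 30343 genes.

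In the fit without normal-salt library 1, alternatives chosen after seeing the data gave 1 gene and 0 replication genes with no filter, 2 and 0 in TPM, and 0 to 43 and 0 to 5 with a further library left out. The other alternatives gave 37 to 69 genes and 4 to 7 replication genes. Where a replication gene had little difference its sign turned. Gins4 was at 0.0167 with the block, Prim1 at -7.53e-05 without high-salt library 6 (up to 0.309 with other libraries left out), and Rfc2 at -0.0364 in TPM and -0.0259 without normal-salt library 3 (up to 0.0646). Rpa2 was at -0.0965 and -0.0115 without normal-salt libraries 2 and 3 and at -0.00965 and -0.0759 without high-salt libraries 3 and 6 (up to 0.151). Dut was at -0.0564 in TPM, at -0.0603, -0.0141 and -0.0456 without normal-salt libraries 2, 3 and 6, and at -0.0261 and -0.111 without high-salt libraries 3 and 6 (up to 0.186). The lowest genes rested on the fewest counts, down to 8 for Mcm10 and 14.6 for Pole2 in normal-salt library 3.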
